A study of Macaca mulatta with 12 samples.

Results

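The genes described here are 9 that set the balance between making glucose and burning it in the liver: PCK1, PCK2, PC, FBP1, GCKR, PKLR, PPARGC1A, IRS2 and PFKFB3. They were chosen by name, with earlier results of these data known. All 9 were found among the 23993 gene identifiers of the deposited transcript table, each on 1 identifier. Liver biopsies were taken from 6 male rhesus macaques of about 4.6 years, and the same animals were sampled post-induction and at baseline. Over an induction of 90 days the daily dose of ethanol was stepped up every 30 days, to 0.5, 1 and finally 1.5 g per kg of body weight, alike in all 6 animals. Baseline livers had not yet met the induction. The animals were sorted afterwards, by their intake over 12 months of free access, into 3 very heavy drinkers (VHD, 4.0 g ethanol per kg per day) and 3 light drinkers (LD, 1.5 g ethanol per kg per day). The 4 groups were thus VHD post-induction, VHD baseline, LD post-induction and LD baseline, with 3 libraries each. No group without ethanol was sampled at the later time, so the induction and the passing of time cannot be told apart. The sources used here do not give the hour of biopsy or the feeding state.

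The liver makes glucose from lactate, amino acids and glycerol in the fasted state, a route called gluconeogenesis, and breaks glucose down by glycolysis in the fed state. The routes share most of their steps and part at a few that run in 1 direction only, where separate enzymes work against each other. Glucagon raises cyclic AMP and thereby switches on transcription of gluconeogenic genes, with the coactivator PPARGC1A and the enzyme PCK1 as textbook targets, while insulin, acting through the receptor substrates such as IRS2, opposes it. Ethanol oxidation uses up NAD+ in hepatocytes and is known to hinder gluconeogenesis from lactate.

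Transcript counts summed to between 5970033 and 25060718 per library. Levels are given as CPM, the counts set against the library totals after scaling by the TMM factors of edgeR, and single genes are not ranked by level, since CPM does not take gene length into account. The hepatocyte markers (6 of 7 names in the table, ALB among them) were present in every library and summed to between 127000 and 244000 CPM. Because whole tissue was measured, fewer cells of a type and less RNA per cell cannot be told apart. VHD post-induction 2 and VHD baseline 3 lay together at one end of component 2 (20.6% of the variance). Results without both are given where a call or a sign changed. Component 1 of the values (31.4% of the variance) put 5 libraries, VHD post-induction 1 and 3, VHD baseline 2 and LD post-induction 2 and 3, on one side and the other 7 on the other, and 4 of those 5 are post-induction libraries.

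None of the 9 genes passed an adjusted p of 0.05 in any of the 6 comparisons made with edgeR's quasi-likelihood test over 18373 genes. The comparison nearest to a call was the mean of the VHD and LD responses, post-induction against baseline, in which 0.267% of all genes tested passed. There 2 of the 9 genes had an unadjusted p under 0.05 (7.91% of all genes did), namely PPARGC1A and PFKFB3. DESeq2 called 1 of the 9, PPARGC1A, and 2.25% of all genes to which it gave an adjusted p. The median log2 change of the 9 genes was 0.07, and that of all genes was 0.07. Within VHD animals and within LD animals the test called 0 of the 9 genes, and 0% of all genes tested passed in either comparison. At an unadjusted p under 0.05 it found 1 of the 9 in VHD (3.44% of all genes) and 1 in LD (5.7%), PPARGC1A both times. DESeq2 called 0 of the 9 in VHD (0.537% of all genes) and 0 in LD (0.341%).

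**Figure D1:**
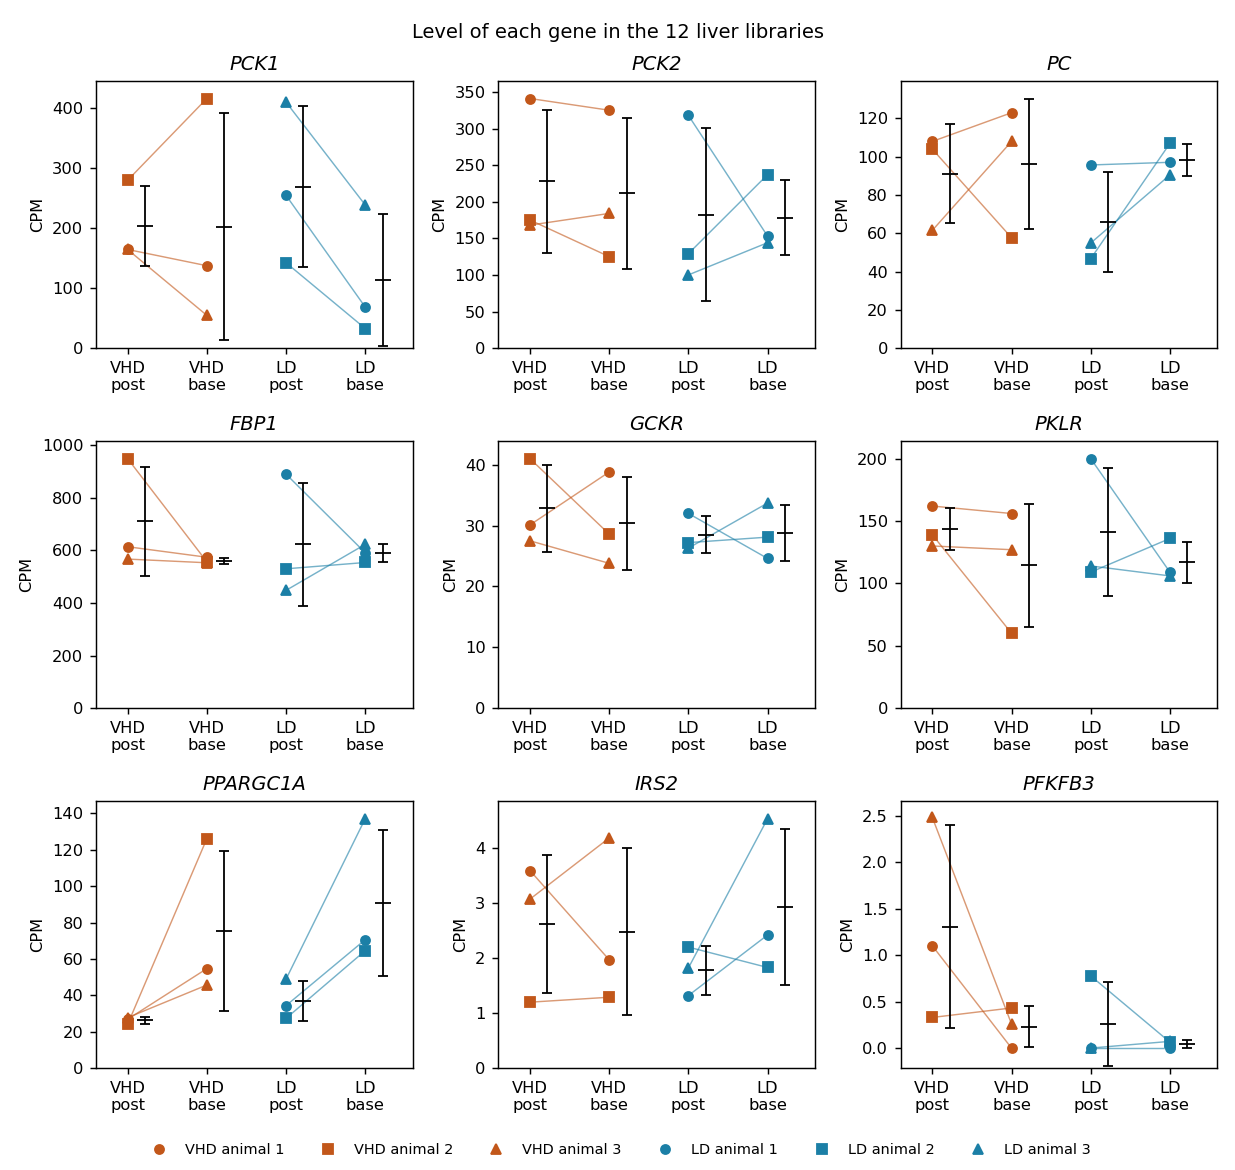
Level in CPM (vertical axis, linear) of each of the 9 genes in the 12 libraries, with VHD post-induction, VHD baseline, LD post-induction and LD baseline from left to right. Coloured points are libraries, lines join the samples of 1 animal, and black marks give the group mean ± SD (n = 3). The PPARGC1A lines of all 6 animals run lower post-induction, while the lines of PCK2, FBP1 and GCKR cross.

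PPARGC1A, the coactivator PGC-1 alpha that partners with nuclear receptors and FOXO1 to drive gluconeogenic and mitochondrial genes, was the gene of the 9 with the smallest p. Its levels were 26.9, 24.1 and 27.8 CPM in VHD post-induction 1, 2 and 3, against 54.7, 126 and 45.7 CPM in VHD baseline. In LD post-induction they were 34.4, 27.4 and 48.9 CPM, against 70.6, 64.6 and 137 CPM in LD baseline. Every animal was lower post-induction, and within each class the post-induction and baseline libraries did not overlap. Of all genes tested 3.89% lay wholly lower in this way in VHD and 6.17% did in LD, and 3.74% were lower in 6 of 6 animals. Across the classes LD post-induction 3, at 48.9 CPM, lay above VHD baseline 3, at 45.7 CPM, so the 6 post-induction and the 6 baseline libraries overlapped by this 1 pair (0.849% of all genes tested had all 6 post-induction libraries lower).

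Averaged over times, PPARGC1A stood at 31.6 ± 9.12 CPM post-induction and 83.1 ± 38.6 CPM at baseline (SD, n = 6 each). The spread was therefore smaller post-induction, most of all in VHD, where it was 26.3 ± 1.92 CPM post-induction and 75.5 ± 44 CPM at baseline (SD, n = 3 each). The mean log2 fold change was -1.41 ± 0.30 (SE), a 2.66-fold lower level, and it missed the threshold in edgeR (adjusted p = 0.0887). DESeq2 gave -1.40 ± 0.32 with an adjusted p of 0.00133, and edgeR with a term for the side of component 1 gave -1.63 ± 0.28 with an adjusted p of 0.0289. Component 1 was computed from these same values, and its sides were not balanced over the times, so that fit is no separate support for a call. Over the other settings of edgeR and limma the adjusted p lay between 0.0571, without VHD baseline 3, and 0.30, without LD baseline 3, and the value stayed between -1.57 and -1.18. Among these settings, edgeR with a term for the animal gave -1.31 ± 0.26 with an adjusted p of 0.136.

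By class the PPARGC1A change was -1.52 ± 0.43 in VHD (adjusted p = 0.743) and -1.30 ± 0.43 in LD (adjusted p = 0.856). The 2 responses differed by -0.22 ± 0.59 (adjusted p = 1). By animal the log2 differences were -1.02, -2.38 and -0.71 in VHD animals 1, 2 and 3 and -1.03, -1.23 and -1.48 in LD animals 1, 2 and 3. VHD animal 2 and LD animal 3 had the largest differences in their classes, and they were the animals with the highest baseline levels. The baseline level is itself part of the difference, so this link is no separate observation. The gene (ENSMMUG00000001844) has 1 transcript model in the table, on the minus strand of chromosome 5 from 23185206 to 23283327 in the build Mmul_8.0.1, and between 195 and 2048 counts per library stood behind its levels.

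PCK1 makes the cytosolic form of phosphoenolpyruvate carboxykinase, the enzyme that commits oxaloacetate to gluconeogenesis and the classic transcriptional target of glucagon. Its levels varied more between animals than those of the other gluconeogenic enzymes. Levels were 164, 279 and 164 CPM in VHD post-induction 1, 2 and 3, against 137, 415 and 54.5 CPM in VHD baseline. LD post-induction had 254, 142 and 409 CPM, against 68.3, 32.6 and 238 CPM in LD baseline. The gene was higher post-induction in 5 of 6 animals, VHD animal 2 being the exception, and the groups overlapped in both classes.

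The PCK1 change was 0.62 ± 0.53 in the mean response (adjusted p = 0.835), 0.00 ± 0.74 in VHD (adjusted p = 1) and 1.25 ± 0.75 in LD (adjusted p = 0.875). The difference between the VHD and LD responses was -1.24 ± 1.05 (adjusted p = 1). These values leaned on single libraries and on the fit: the mean response was 1.01 ± 0.33 (adjusted p = 0.47) with a term for the animal, 1.21 without LD baseline 3, 1.10 without VHD baseline 2 and 0.38 without VHD baseline 3. Over all alternatives the LD value lay between 0.81 and 2.41 and the difference between -2.41 and -0.16, with no call. Levels of PCK1 ran from 142 to 409 CPM post-induction and from 32.6 to 415 CPM at baseline. Over all 12 libraries the highest was 12.7 times the lowest, and its SD on the log2 scale, 1.14, was at or above that of 94% of all genes tested. PCK1 (ENSMMUG00000022586) lies on the minus strand of chromosome 10 from 6840881 to 6845619 and had between 395 and 6749 counts per library.

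PCK2, the mitochondrial form of the same enzyme, had no common direction among the animals. Its levels were 341, 175 and 168 CPM in VHD post-induction, against 325, 125 and 184 CPM in VHD baseline. LD post-induction had 318, 129 and 100 CPM, against 153, 237 and 144 CPM in LD baseline. It was higher post-induction in 3 animals and lower in 3, and the mean change was 0.07 ± 0.35 (adjusted p = 0.982). VHD animal 1 was the highest of its class at both times, at 341 CPM post-induction and 325 CPM at baseline. The gene (ENSMMUG00000021590, chromosome 7, plus strand, 85501917 to 85511814) has 3 transcript models, of which 1 took between 94.3 and 98.8% of its counts in every library.

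PC, pyruvate carboxylase, turns pyruvate into oxaloacetate in mitochondria, the step before the carboxykinase. Its levels were 108, 104 and 61.5 CPM in VHD post-induction, against 123, 57.7 and 108 CPM in VHD baseline. LD post-induction had 95.7, 46.7 and 54.9 CPM, against 97.1, 107 and 90.5 CPM in LD baseline. The 4 lowest libraries were VHD post-induction 3, VHD baseline 2 and LD post-induction 2 and 3, which are 4 of the 5 on one side of component 1. On that side PC ranged from 46.7 to 108 CPM, and on the side of the other 7 libraries from 90.5 to 123 CPM. The part of this division in the change was not tested beyond 1 fit with it as a term, in which the mean change of PC was 0.05, against -0.33 ± 0.27 (adjusted p = 0.821) without the term. PC was lower post-induction in 5 of 6 animals, though by 0.02 only in LD animal 1 on the log2 scale. The table gives PC (ENSMMUG00000004533) 3 transcript models on the plus strand of chromosome 14, from 7457691 to 7562964. The longest span took between 14.5 and 32.7% of the gene's counts and the leading model between 67.3 and 85.5%.

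FBP1, fructose-1,6-bisphosphatase, takes the phosphate off that is put on by phosphofructokinase and so opposes glycolysis at its main control point. It was the steadiest of the gluconeogenic enzymes at baseline. Levels were 710 ± 208 CPM in VHD post-induction, against 561 ± 11.4 CPM in VHD baseline, and 623 ± 235 CPM in LD post-induction, against 589 ± 34.2 CPM in LD baseline (SD, n = 3 each). The wider spread post-induction came from 2 high libraries, VHD post-induction 2 at 949 CPM and LD post-induction 1 at 890 CPM, and from LD post-induction 3 at 448 CPM, the lowest of all. FBP1 was higher in 4 of 6 animals, and its mean change was 0.21 ± 0.24 (adjusted p = 0.901). It lies on the minus strand of chromosome 15 from 108412486 to 108447748 (ENSMMUG00000022536) and had at least 3416 counts in each library.

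On the side of glucose use, GCKR, the regulatory protein that holds glucokinase in the nucleus of the fasted hepatocyte, varied little. Its levels were 30.1, 41 and 27.5 CPM in VHD post-induction, against 38.8, 28.6 and 23.8 CPM in VHD baseline. LD post-induction had 32, 27.2 and 26.3 CPM, against 24.6, 28.1 and 33.7 CPM in LD baseline. The highest library was only 1.72 times the lowest, and 2.7% of all genes tested had an SD as small or smaller on the log2 scale. The mean change was 0.05 ± 0.21 (adjusted p = 0.982), with 3 animals higher and 3 lower. GCKR (ENSMMUG00000005102) lies on the plus strand of chromosome 13 from 27793273 to 27816478.

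PKLR makes the liver pyruvate kinase, the last step of glycolysis, which glucose and insulin raise. Its levels were 162, 139 and 130 CPM in VHD post-induction, against 156, 60.1 and 127 CPM in VHD baseline. LD post-induction had 200, 109 and 114 CPM, against 109, 136 and 106 CPM in LD baseline. The gene was higher post-induction in 5 of 6 animals, but in 3 of these by 0.11 or less on the log2 scale. Only VHD animal 2 (1.21) and LD animal 1 (0.87) showed more, and the mean change was 0.30 ± 0.26 (adjusted p = 0.846). In VHD baseline 2, PKLR was at its lowest of the 12 libraries and PCK1 at its highest. PKLR (ENSMMUG00000023143) is on the minus strand of chromosome 1 from 129973291 to 129986932.

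PFKFB3, a bifunctional enzyme that makes the phosphofructokinase activator fructose 2,6-bisphosphate and is known as the inducible form, was barely detected. It had 97 counts in all 12 libraries together, 55 of them (56.7%) in VHD post-induction 3. Counts were 8, 6 and 55 in VHD post-induction, against 0, 7 and 7 in VHD baseline. LD post-induction had 0, 12 and 0 counts, against 0, 1 and 1 in LD baseline. The 4 libraries at 0 allow levels of up to 0.159 to 0.519 CPM, at 3 counts per library and for counting error only. The fitted mean change of 2.25 ± 1.01 (unadjusted p = 0.0433, adjusted p = 0.601) depended on how near-zero counts were handled. With the deposited normalized values and a pseudocount of 1 on the log2 scale it was 0.48, and it turned to -0.27 without LD post-induction 2, the 1 LD post-induction library with any count. The gene (ENSMMUG00000010596) has 4 transcript models on the plus strand of chromosome 9 between 6076707 and 6163967.

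IRS2, an adaptor that passes the insulin signal from the receptor on to AKT in liver, was also low, with between 14 and 113 counts per library. Levels were 3.59, 1.2 and 3.07 CPM in VHD post-induction, against 1.97, 1.29 and 4.18 CPM in VHD baseline. LD post-induction had 1.32, 2.2 and 1.82 CPM, against 2.42, 1.83 and 4.53 CPM in LD baseline. Of the animals 4 were lower and 2 higher, and the mean change was -0.34 ± 0.39 (adjusted p = 0.898). The value was 0.15 when the pair VHD post-induction 2 and VHD baseline 3 was left out. The single model in the table lies on the minus strand of chromosome 17 from 91478459 to 91483305 (ENSMMUG00000021790).

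**Figure D2:**
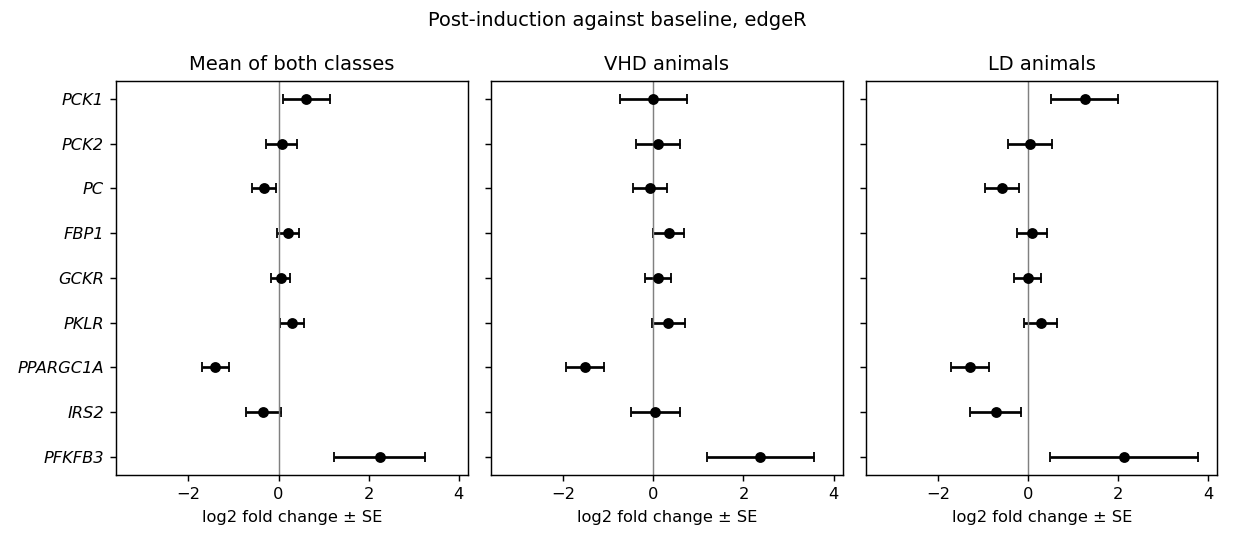
Log2 fold change ± SE of each gene, post-induction against baseline, in the mean of both classes, in VHD animals and in LD animals (edgeR, horizontal axis). PPARGC1A is the gene farthest below 0 in each panel, at -1.41 in the mean, -1.52 in VHD and -1.30 in LD, and the wide bars of PFKFB3 go with its 97 counts.

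Because depth cancels within a library, counts of pairs of these genes were also set against each other. There were 6.11, 11.5 and 5.9 PCK1 counts per PPARGC1A count in VHD post-induction 1, 2 and 3, against 2.5, 3.3 and 1.19 in VHD baseline. In LD post-induction there were 7.38, 5.17 and 8.37, against 0.968, 0.505 and 1.74 in LD baseline. The ratio was higher post-induction in 6 of 6 animals, and the 6 post-induction libraries (5.17 to 11.5) did not overlap the 6 at baseline (0.505 to 3.3). This pair was singled out after its values were seen, and 13.5% of all other tested genes parted the times in the same way when set over PPARGC1A. Of the 8 other genes described here 1, PCK1, did so, which is near the share of all genes. The separation is therefore not particular to PCK1, whose own levels overlapped between the times.

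PCK1 over PKLR, the enzyme of glucose making set against that of glucose use, did not part the times. It ran from 1.02 to 3.58 post-induction and from 0.24 to 6.91 at baseline, and was higher in 5 of 6 animals. The exception was again VHD animal 2, with a log2 difference of -1.79. FBP1 over PKLR lay between 3.8 and 6.82 post-induction and between 3.68 and 9.26 at baseline.

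**Figure D3:**
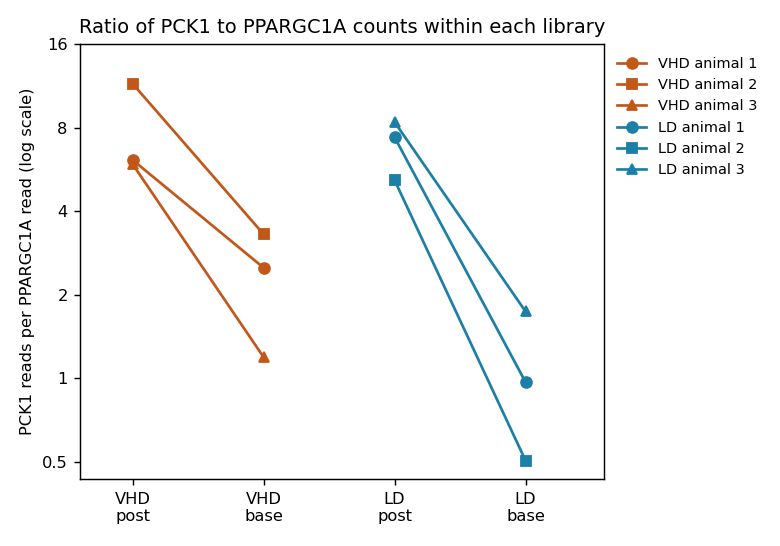
PCK1 counts per PPARGC1A count in each library (vertical axis, log scale), with VHD post-induction, VHD baseline, LD post-induction and LD baseline from left to right and lines joining the samples of 1 animal. All 6 post-induction ratios are at least 5.17, and all 6 baseline ratios are at most 3.3. Set over PPARGC1A, 13.5% of all other tested genes parted the times in the same way.

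Whether the livers of later very heavy drinkers differed from those of later light drinkers before any ethanol was asked of the baseline libraries. The edgeR test called 0 of the 9 genes, with 0.00544% of all genes tested passing, and 0 had an unadjusted p under 0.05 (1.86% of all genes). DESeq2 called 0 of the 9 and 0.00546% of all genes. The log2 differences, VHD minus LD, ran from -0.26 ± 0.42 for PPARGC1A to 0.84 ± 0.75 for PCK1 among the 8 genes other than PFKFB3 (adjusted p = 1 each), and the classes overlapped for all 9 genes, while 7.21% of all genes tested did not overlap. PFKFB3, on its few counts, had 2.03 ± 1.63. PCK1 averaged 202 ± 189 CPM in VHD baseline and 113 ± 110 CPM in LD baseline (SD, n = 3 each). Without VHD baseline 2 its difference was -0.25. Cell markers differed in direction by list at baseline, with 0 called in edgeR. All tested macrophage (6, median 0.54), T and NK cell (5, 0.69), neutrophil (5, 0.99) and erythrocyte (4, 0.14) markers had higher values in VHD. All 6 hepatocyte (median -0.22) and 5 stellate cell (-0.08) markers had lower ones. Sinusoidal endothelium and cholangiocyte markers went both ways. The summed hepatocyte markers ranged from 127000 to 241000 CPM in VHD baseline and from 203000 to 238000 CPM in LD baseline. At an unadjusted p under 0.05 there were 1 macrophage, 2 T and NK cell and 1 neutrophil markers. The summed neutrophil markers ranged from 11.9 to 39.1 CPM in VHD baseline and from 9 to 13.6 CPM in LD baseline, those of macrophages from 141 to 247 CPM in VHD and from 96.9 to 160 CPM in LD, and those of T and NK cells from 6.59 to 10.3 CPM in VHD and from 4.49 to 6.92 CPM in LD. No marker was at 0 in any library, and their part in the class values was not tested.

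After the same induction 0 of the 9 genes were called between the classes by edgeR (0% of all genes tested) and 0 by DESeq2 (0.00546%). None had an unadjusted p under 0.05 in edgeR (2.44% of all genes), and the classes overlapped for all 9 (4.83% of all genes tested did not overlap). PPARGC1A was 26.3 ± 1.92 CPM in VHD and 36.9 ± 10.9 CPM in LD (SD, n = 3 each), a log2 difference of -0.49 ± 0.42 (adjusted p = 0.999). PC was 91.3 ± 25.9 CPM in VHD and 65.8 ± 26.2 CPM in LD, a difference of 0.47 ± 0.38 (adjusted p = 0.999). IRS2 had 0.54 ± 0.56 and PFKFB3, on its few counts, 2.28 ± 1.20 (adjusted p = 0.999 each). The remaining genes lay between -0.41 ± 0.74 for PCK1 and 0.32 ± 0.49 for PCK2. The comparison of the VHD response with the LD response called 0 of the 9 (0% of all genes in edgeR) and had 0 at an unadjusted p under 0.05 (1.3% of all genes), and DESeq2 called 0 of the 9 (0.00546% of all genes).

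The other genes of glucose metabolism and its control were taken as 5 lists with 116 tested identifiers. These lists too were chosen with earlier results of these data known, so their counts are description only. In the mean response 1 rose and 1 fell in edgeR, where 0.0163% of all genes tested were called higher and 0.25% lower. Both were in the list of glucagon, cyclic AMP and gluconeogenic transcription (34 tested, median log2 change 0.01, against 0.07 for all genes). At an unadjusted p under 0.05 in edgeR, 3 genes of this list were higher and 4 lower, not all of them named here. Of all genes tested 3.76% were higher and 4.16% lower at that p. CREM, a cyclic AMP responsive transcription factor whose short form ICER represses such genes, fell in 6 of 6 animals (-1.28 ± 0.24, adjusted p = 0.0491). It averaged 35.4 ± 5.76 CPM in VHD post-induction, against 94.9 ± 17.2 CPM in VHD baseline, and 52.5 ± 10.9 CPM in LD post-induction, against 116 ± 46.9 CPM in LD baseline (SD, n = 3 each). PDE4B, a phosphodiesterase that breaks cyclic AMP down, rose in 6 of 6 animals (1.20 ± 0.21, adjusted p = 0.0363). Of all genes tested 3.74% were lower and 2.67% higher in 6 of 6 animals. NR4A2, an orphan receptor that cyclic AMP induces, had a value of -1.24 ± 0.32 (adjusted p = 0.179, lower in 6 of 6 animals), and DESeq2 called it (adjusted p = 0.0136). KLF15, a glucocorticoid-responsive factor that promotes gluconeogenesis from amino acids, had 0.77 ± 0.22 in edgeR (adjusted p = 0.268, higher in 6 of 6 animals) and was called by DESeq2 (0.0396). FOXO1, the insulin-restrained transcription factor that works with PPARGC1A, had -0.90 ± 0.27 (0.30, lower in 5 of 6 animals), and both were added to the named genes after their values were seen. With a term for the animal, as a replicate block, 0 of the 116 passed, and the adjusted p was 0.0989 for CREM and 0.113 for PDE4B. Of the fits without single libraries, CREM passed only without LD baseline 1 (adjusted p = 0.0395) and PDE4B only without LD post-induction 1 (0.045) or VHD post-induction 2 (0.0387), and in the others the adjusted p reached 0.159 for CREM and 0.146 for PDE4B.

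None of the 18 tested genes of insulin signalling passed in the mean response in edgeR, with 3 at an unadjusted p under 0.05, all lower (4.16% of all genes were lower at that p), and a median of 0.03. These were TRIB3, a pseudokinase that blocks AKT (-1.08 ± 0.30, adjusted p = 0.239, lower in 5 of 6 animals), TRIB1, its relative (-1.09 ± 0.45, 0.551), and the kinase AKT1 (-0.50 ± 0.22, 0.584, lower in 6 of 6 animals). Lower in 6 of 6 animals were 3.74% of all genes tested. DESeq2 called TRIB3 (adjusted p = 0.0482). The list of gluconeogenic supply and shared reversible steps had 0 of 20 called in edgeR, with 2 of 20 at an unadjusted p under 0.05, against 7.91% of all genes, and a median of -0.05. GOT1, the cytosolic aspartate aminotransferase (-1.07 ± 0.41, adjusted p = 0.504), and LDHA, a lactate dehydrogenase subunit (-0.71 ± 0.28, 0.516), had its smallest p-values, each lower in 5 of 6 animals. Without LD post-induction 1 GOT1 was at -1.64 with an adjusted p of 0.0483. GAPDH, the glyceraldehyde phosphate dehydrogenase shared by both routes, had 0.62 ± 0.38 (0.741).

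Glycolysis entry, regulation and pyruvate oxidation had 0 of 28 called and 0 at an unadjusted p under 0.05 in edgeR, with a median of 0.12. Its leading values were -0.78 ± 0.41 for TXNIP, a glucose-induced inhibitor of glucose uptake, -0.45 ± 0.24 for the transporter SLC2A1 and 0.78 ± 0.43 for the aldolase ALDOC. The glycogen list likewise had 0 of 16 called and 0 at an unadjusted p under 0.05, with a median of 0.17. GYS2, the liver glycogen synthase, had -0.64 ± 0.33 (adjusted p = 0.684), while the muscle form GYS1 had 0.51 ± 0.29 (0.72) and the glycogen phosphatase EPM2A 1.28 ± 0.72 (0.722). GYS2 and SLC2A1 were each lower in 6 of 6 animals, as 3.74% of all genes tested were. DESeq2 called 5 of the 116 genes of the 5 lists in the mean response, namely PDE4B, CREM, NR4A2, KLF15 and TRIB3, beside 2.25% of all genes. In the VHD response edgeR called 0 of the 116 and DESeq2 1 (CREM, beside 0.537% of all genes), and in the LD response edgeR called 0 and DESeq2 1 (PDE4B, beside 0.341%). In both class comparisons and in the difference of the responses both tools called 0.

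Early response genes, which cells switch on within minutes of a stimulus, were set beside these lists. Of the 15 names on this list 9 were matched and tested, and JUN, EGR1, IER2, IER3, DUSP1 and BTG2 were not found. Of the 9 tested members 5 fell and 0 rose, with a median of -1.84 in edgeR, where 0.25% of all genes were called lower. These were the transcription factors KLF6 (-2.40 ± 0.27, adjusted p = 0.0117), MYC (-2.91 ± 0.44, 0.0246), JUNB (-3.75 ± 0.61, 0.0268) and FOS (-1.84 ± 0.34, 0.0423), and ZFP36, which speeds mRNA decay (-2.86 ± 0.40, 0.0246), each lower in 6 of 6 animals (3.74% of all genes tested were). DESeq2 called all 5, but with the animal term in edgeR only KLF6 passed (adjusted p = 0.0177), and the others lay between 0.0637 for ZFP36 and 0.143 for FOS. Over 22 alternatives the call was lost in 15 for FOS, 9 for MYC, 9 for JUNB, 6 for ZFP36 and 2 for KLF6, the last without LD post-induction 2 (0.0604) or VHD post-induction 1 (0.0649). Without LD post-induction 2 or VHD post-induction 1 none of the 5 passed. When VHD post-induction 2 and VHD baseline 3 were both left out, MYC (adjusted p = 0.0621) and FOS (0.123) did not pass in edgeR. This list was chosen with its direction in these samples known and is not independent evidence of it, and its part in the PPARGC1A values was not tested. Of 8 lists of cell markers none had a called gene in the mean response in edgeR. Medians were -0.06 for hepatocytes, -0.13 for macrophages, -0.01 for T and NK cells, -0.39 for neutrophils, -0.04 for sinusoidal endothelium, -0.13 for stellate cells, 0.47 for cholangiocytes and 0.54 for erythrocytes, whose 4 markers all had positive values. At an unadjusted p under 0.05 there was 1 hepatocyte, 1 neutrophil and 1 erythrocyte marker, and the part of these cells in the values was not tested.

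**Figure D4:**
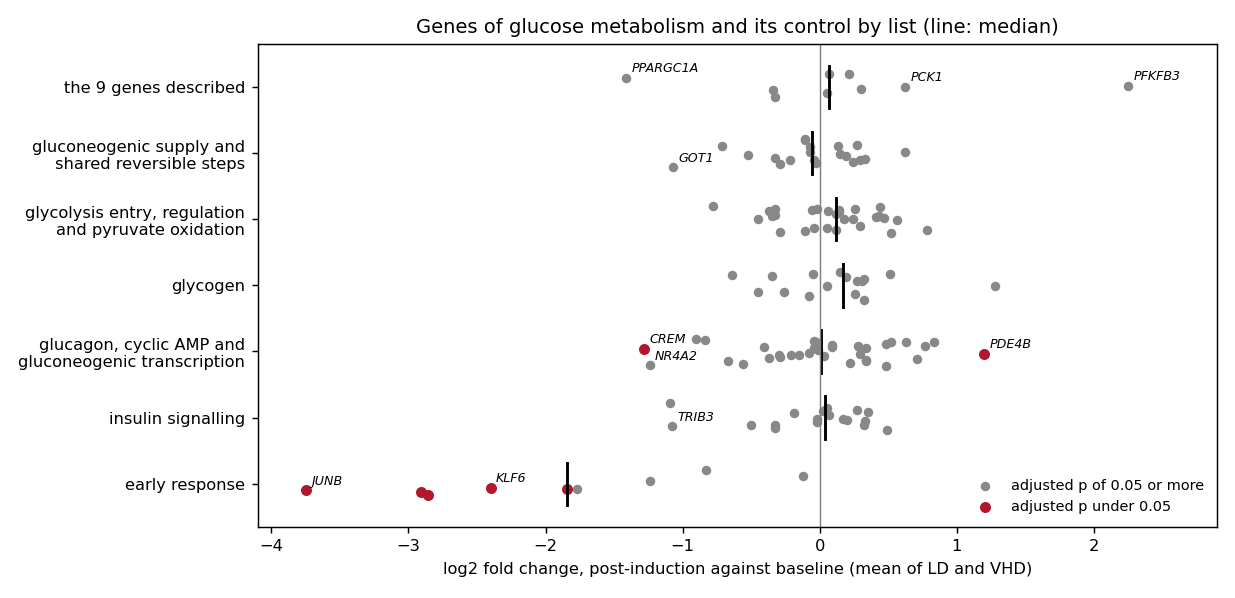
Log2 fold change in the mean response (horizontal axis) of every tested gene of the 9 described here, of the 5 lists of glucose metabolism and its control, and of the early response list. Each point is a gene, red marks an adjusted p under 0.05, and the vertical line is the median of the list. CREM at -1.28 and PDE4B at 1.20 are the called genes of the 5 glucose lists, and PPARGC1A at -1.41 lies below CREM without a call.

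The genes whose log2 CPM followed each of 4 members most closely were looked up among 5838 genes of higher level, as a description over 12 libraries that share 6 animals. For PPARGC1A they were ISCA1, GALNT2 and TPST1 (Pearson r = 0.929, 0.928 and 0.927). For PCK1 they were TENT5A, GIMAP8 and RELN (0.838, 0.767 and 0.734). For IRS2 they were PSIP1, ERN1 and ZFP36L1 (0.82, 0.79 and 0.775), and for PFKFB3, on its few counts, HSD17B13, CSPG4 and MYO15A (0.842, 0.841 and 0.835). These values pool both times, and some were lower within 1 of them: over 6 libraries RELN with PCK1 had 0.22 post-induction and 0.851 at baseline, ISCA1 with PPARGC1A 0.547 post-induction and 0.849 at baseline, and HSD17B13 with PFKFB3 0.919 post-induction and 0.316 at baseline. Among the 9 genes the closest pairs were PCK2 with PKLR (r = 0.76) and PCK2 with PC (r = 0.75), while PCK1 with PPARGC1A had r = 0.02.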

How the data were processed

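RNA came from 12 liver biopsies. The deposited transcript table holds expected counts per Ensembl transcript (40.1% whole numbers), and a second deposited table holds normalized signal values, which equalled these counts times 1 constant per library and served only in an alternative. Per the submitters' processing notes, Partek, Bowtie, BWA and Mmul_8.0.1 were used; the sources used here do not give versions, roles or annotation. Positions are as deposited, and a start may be off by 1 base. The 40611 transcripts were summed per gene identifier and rounded, which gave 23993 genes, 15471 with a symbol in the reference table. The tests ran on the 18373 genes that passed filterByExpr by group, with edgeR 4.0.16 under R 4.3.3: TMM factors, robust quasi-likelihood fit of 4 group means, F test, Benjamini-Hochberg adjustment over all genes of a comparison, threshold 0.05. The code was tested on simulated data. Alternatives used DESeq2 1.42.0, limma 3.58.1, other factors and filters, an animal or number term, a component 1 term, and left-out libraries. Log2 CPM used a prior count of 2.

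The 9 genes and all lists were chosen with earlier results of these data known. Named besides the 9 were list genes called in a comparison, and the 3 of each list with the smallest p in the mean response. KLF15 and FOXO1 were added outside this rule, after their values were seen. Genes most alike were the 3 with the highest Pearson r, among genes with a symbol whose mean log2 CPM was 3 or more. Numbers in the titles pair the samples of 1 animal. Same-animal deviations from the group means correlated between -0.354, in VHD animal 2, and 0.406, in VHD animal 1. Within a group each library is from a separate animal, but the post-induction and baseline groups of a class hold the same animals. The p-values of the main test rest on the spread between animals within groups. That test treats the samples of 1 animal as independent and so leaves the pairing out. Floors and counts cover counting error only. The miRNA tables were not used.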

Additional observations from a re-analysis of the deposited data

How the results depend on the processing

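Of the 9 genes, 0 were called in 5 of the 6 comparisons under every alternative run, and in the mean response the count was 1 (PPARGC1A) with DESeq2 and with the component 1 term and 0 otherwise. The count of called pathway genes in the mean response, 2, was 5 with DESeq2, 1 with upper-quartile factors, no filter, a filter of 1 CPM in 3 libraries or the component 1 term, 0 with the replicate block or without VHD baseline 3 and VHD post-induction 2, and 0 to 2 without single libraries; with DESeq2 it was 1 in the LD and 1 in the VHD response. With the replicate block 4 genes of all were called in the mean response, against 49 without it, and of the early response genes KLF6 stayed called while ZFP36, MYC, JUNB and FOS did not; no further call named in the text changed with it. Depth limits PFKFB3 and IRS2 most.

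Signs turned mainly where a log2 value was small against its SE, and the cause was not tested. Without VHD baseline 3 and VHD post-induction 2, GCKR was -0.12 and IRS2 0.15 in the mean response, PCK1 -0.75 and GCKR -0.23 in the VHD response, FBP1 -0.02 and GCKR -0.21 in the response difference, and FBP1 -0.08 between the classes post-induction. With the component 1 term, PC was 0.05 and EPM2A -0.33 in the mean response, GCKR 0.18 in LD, PC 0.24 and IRS2 -0.15 in VHD, PPARGC1A 0.06 in the difference, and PC 0.15, FBP1 0.12 and PKLR 0.11 between the classes at baseline. With upper-quartile factors GCKR was 0.07 in LD, and PC 0.02 and PKLR 0 between the classes at baseline. PCK2 in LD was -0.13 with the replicate block and -0.12 on the deposited normalized values with either pseudocount, and PCK1 in VHD was 0 with no filter and -0.01 in a fit of the VHD libraries alone. Left-out libraries turned 31 member values. Their ranges were, in the mean response, -0.27 to 0.30 for PCK2, -0.07 to 0.16 for GCKR and -0.27 to 2.55 for PFKFB3. In LD they were -0.64 to 0.32 for PCK2, -0.27 to 0.27 for FBP1, -0.20 to 0.11 for GCKR, -0.07 to 0.43 for PKLR and -2.92 to 2.74 for PFKFB3. In VHD they were -0.43 to 1.02 for PCK1, -0.31 to 0.56 for PCK2, -0.41 to 0.14 for PC, -0.08 to 0.33 for GCKR, -0.05 to 0.62 for PKLR and -0.35 to 0.64 for IRS2. In the difference they were -0.34 to 0.75 for PCK2, -0.01 to 0.61 for FBP1, -0.06 to 0.34 for GCKR, -0.26 to 0.40 for PKLR, -0.65 to 0.36 for PPARGC1A and -0.62 to 5.29 for PFKFB3. At baseline between the classes they were -0.25 to 2.00 for PCK1, -0.21 to 0.51 for PCK2, -0.25 to 0.23 for PC, -0.14 to 0.20 for GCKR, -0.33 to 0.26 for PKLR, -0.86 to 0.16 for PPARGC1A and -0.91 to 0.25 for IRS2. Post-induction they were -0.72 to 0.03 for PCK1, -0.09 to 0.99 for PCK2, -0.08 to 0.54 for FBP1 and -0.14 to 0.36 for PKLR.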

Other observations

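LD baseline 3 and VHD baseline 2 were the highest 2 of the 6 baseline libraries for both PPARGC1A (137 and 126 CPM) and PCK1 (238 and 415 CPM). Over the 6 baseline animals the genes had Pearson r = 0.77 (exact permutation p = 0.0875, adjusted over 2 relations 0.0875) and Spearman rho = 0.66 (exact permutation p = 0.175, adjusted 0.35). Without those 2 libraries, the farthest from the median PPARGC1A level, r was -0.19. Leaving them out also narrowed the range of PPARGC1A, so this r cannot decide whether the relation holds among the rest. Over the 6 post-induction animals r was 0.70 (exact permutation p = 0.0806, adjusted 0.0875) and rho 0.26 (exact permutation p = 0.658, adjusted 0.658). The same rule left out LD post-induction 1 and 3 and gave r = -0.95. The libraries left spanned only 24.1 to 27.8 CPM of PPARGC1A, so no direction is read from that value. Both relations were computed after the levels had been seen.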
